A study of Mus musculus with 6 samples.

Results

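The genes described are the ligands, receptors and secreted modulators of Wnt signalling, 49 of the 19938 genes measured in challenged mouse ear skin. They were chosen by name: each gene whose symbol is Wnt, Fzd, Dkk, Sfrp or Rspo followed by a digit, and Frzb, Wif1, Lrp5, Lrp6, Axin2, Notum and Lef1. All 49 had a probe set of their own, and Fzd10os, whose symbol marks a transcript of the strand opposite Fzd10, falls under the rule although it is no receptor. The CLEC4C-DTR group held 3 mice (genotype CLEC4C-DTR/+), in which a CLEC4C transgene drives the receptor for diphtheria toxin. CLEC4C is a human gene known from plasmacytoid dendritic cells, and cells that express the receptor can be killed with the toxin. The controls were 3 littermates without the transgene. All 6 mice, aged 10 to 12 weeks and of a strain not given in the sources used here, were injected with 200 ng of the toxin on days -1, 1, 3 and 5. A solution of FITC (fluorescein isothiocyanate, a reactive dye that sensitises skin) at 0.5% in acetone and dibutyl phthalate was put on the abdomen on days 0 and 2 and on the right ear on day 6, and each array held RNA of 1 treated ear of 1 mouse. The time from ear treatment to collection was not stated. Neither an untreated ear nor a CLEC4C-DTR mouse without toxin was analysed here, so effects of the transgene and of the toxin acting through it cannot be told apart.

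Wnt proteins are secreted, lipid-bearing signals that bind Frizzled receptors and the co-receptors Lrp5 and Lrp6. In the canonical branch this stops the destruction of beta-catenin, which then acts with Lef1 and related factors on target genes such as Axin2. R-spondins strengthen the signal by keeping Frizzled at the cell surface, while Dickkopf, Sfrp, Frzb, Wif1 and Notum proteins weaken it at the receptor or on the ligand. In skin the pathway is known for starting hair follicles and their growth phase, for the upkeep of follicle stem cells and the basal epidermis, and for the identity of dermal fibroblasts and the dermal papilla.

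The promoters of 4 members that fell are shown because these genes span the pathway, as a target (Axin2), 2 secreted inhibitors (Sfrp2 and Wif1) and a ligand (Wnt10b). Each sequence is the 250 bases before the start of the gene, from RefSeq on build GRCm38.p6, 5′ to 3′ on the strand of the gene, with capitals marking CG pairs. They lie at chr11:108920099-108920348 on the plus strand for Axin2, chr3:83766071-83766320 on the plus strand for Sfrp2, chr10:121033754-121034003 on the plus strand for Wif1 and chr15:98778151-98778400 on the minus strand for Wnt10b.
Axin2: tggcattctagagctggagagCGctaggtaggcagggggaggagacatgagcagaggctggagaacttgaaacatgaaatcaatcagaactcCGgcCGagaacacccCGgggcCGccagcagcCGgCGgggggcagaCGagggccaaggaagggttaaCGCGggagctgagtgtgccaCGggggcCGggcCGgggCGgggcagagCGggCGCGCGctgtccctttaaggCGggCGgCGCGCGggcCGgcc
Sfrp2: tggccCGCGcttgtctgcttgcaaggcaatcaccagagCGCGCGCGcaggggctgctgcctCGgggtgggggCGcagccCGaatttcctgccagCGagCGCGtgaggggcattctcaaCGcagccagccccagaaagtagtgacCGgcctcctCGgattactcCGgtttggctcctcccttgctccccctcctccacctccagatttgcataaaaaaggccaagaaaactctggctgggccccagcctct
Wif1: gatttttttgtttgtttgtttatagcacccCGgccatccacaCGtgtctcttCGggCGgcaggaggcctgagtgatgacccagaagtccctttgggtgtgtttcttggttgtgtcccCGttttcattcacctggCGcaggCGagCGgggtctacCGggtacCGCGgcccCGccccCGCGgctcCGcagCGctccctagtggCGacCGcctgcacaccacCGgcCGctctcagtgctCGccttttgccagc
Wnt10b: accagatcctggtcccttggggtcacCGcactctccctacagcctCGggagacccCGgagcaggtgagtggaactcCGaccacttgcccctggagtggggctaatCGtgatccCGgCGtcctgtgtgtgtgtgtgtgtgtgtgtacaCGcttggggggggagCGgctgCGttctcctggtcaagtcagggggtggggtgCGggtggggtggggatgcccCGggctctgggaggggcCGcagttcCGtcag
These windows hold 24 CG pairs in Axin2, 16 in Sfrp2, 21 in Wif1 and 14 in Wnt10b. RefSeq promoter windows were found for 31 members (37 windows), with a median of 21 CG pairs, against a median of 6 in all 32851 windows. The TCF/LEF motif, searched as CTTTGAT or CTTTGAA on both strands, was in 0 of the 7 windows of called members, in 3 of the 37 windows of all members (8.11%) and in 7.48% of all windows. Those 3 windows belong to Dkk1, Wnt11 and Wnt5b, none of which was called. A missing match says only that these letters are not in this window.

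Values are RMA log2 values, normalised between arrays by the authors, and differences are CLEC4C-DTR minus littermate control on the log2 scale, each with the SE of the limma fit. Array medians ran from 6.1685 to 6.2053 in CLEC4C-DTR ears and from 6.2149 to 6.2338 in controls, so every CLEC4C-DTR median lay below every control median. Keratins Krt5 and Krt14, which mark the basal epidermis, averaged 12.11 and 12.10 in CLEC4C-DTR ears and 12.26 and 12.08 in controls, and Krt14 was the 1 of 8 basal keratinocyte genes with a higher mean in CLEC4C-DTR ears. Collagen Col1a1, of the dermis, averaged 8.13 in CLEC4C-DTR ears and 8.39 in controls, and Acan, of the cartilage plate of the ear, averaged 7.79 in CLEC4C-DTR ears and 8.48 in controls. Over all genes 860 fell (4.31% of 19938) and 998 rose (5.01%) at an adjusted p of 0.05. The plasmacytoid dendritic cell genes Siglech and Ccr9 differed by -0.17 (adjusted p = 0.378) and -0.26 (adjusted p = 0.258), Bst2, which interferon also induces, by 0.57 (adjusted p = 0.140). None of the 8 plasmacytoid dendritic cell genes measured passed with limma, and 7 had a lower mean in CLEC4C-DTR ears, against 58.2% of all genes. At an unadjusted p of 0.05, 2 were lower (Tcf4 and Smim5) and 1 was higher (Bst2), against 15.1% and 12.2% of all genes. Hbegf, the mouse counterpart of the human gene that encodes the toxin receptor, was higher by 1.29 (adjusted p = 0.0474), and whether its probes read the transgene was not tested.

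In CLEC4C-DTR ears 9 of the 49 members fell and none rose. The 9 were the ligands Wnt10b and Wnt3a, the receptors Fzd3 and Fzd7, the agonists Rspo1 and Rspo3, the secreted inhibitors Sfrp2 and Wif1 and the feedback target Axin2. They were thus spread over genes that promote the signal and genes that restrain it. Over all genes 4.31% fell and 5.01% rose, so the members' share of 18.4% lower lay above that background and their share higher below it. The median difference of the 49 was -0.17, against -0.04 over all genes, and 45 of 49 (91.8%) had a lower mean in CLEC4C-DTR ears, against 58.2% of all genes. Sfrp2 alone fell at least 2-fold, where 0.376% of all genes did so, and no member rose 2-fold, against 1.67% of all genes. That count of falls was 3 without CLEC4C-DTR replicate 1 and 0 without CLEC4C-DTR replicate 3, control replicate 1 or control replicate 3. At an unadjusted p of 0.05, 21 members were lower and 0 higher with limma, against 15.1% and 12.2% of all genes.

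The count of 9 changed with the array left out. No member was called when CLEC4C-DTR replicate 3, control replicate 1 or control replicate 3 was left out, and at an unadjusted p of 0.05 limma then found 19, 21 and 14 members lower, against 12.2%, 12.3% and 9.96% of all genes. The fit that left out CLEC4C-DTR replicate 2 called 2 members (Fzd3 and Sfrp2), the fit that left out control replicate 2 called 5, and leaving out CLEC4C-DTR replicate 1 gave 12. Lower calls over all genes moved too, to 38, 59 and 18 in the 3 fits that called no member. They were 177, 489 and 1275 in the fits that called 2, 5 and 12 members.

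**Figure D1:**
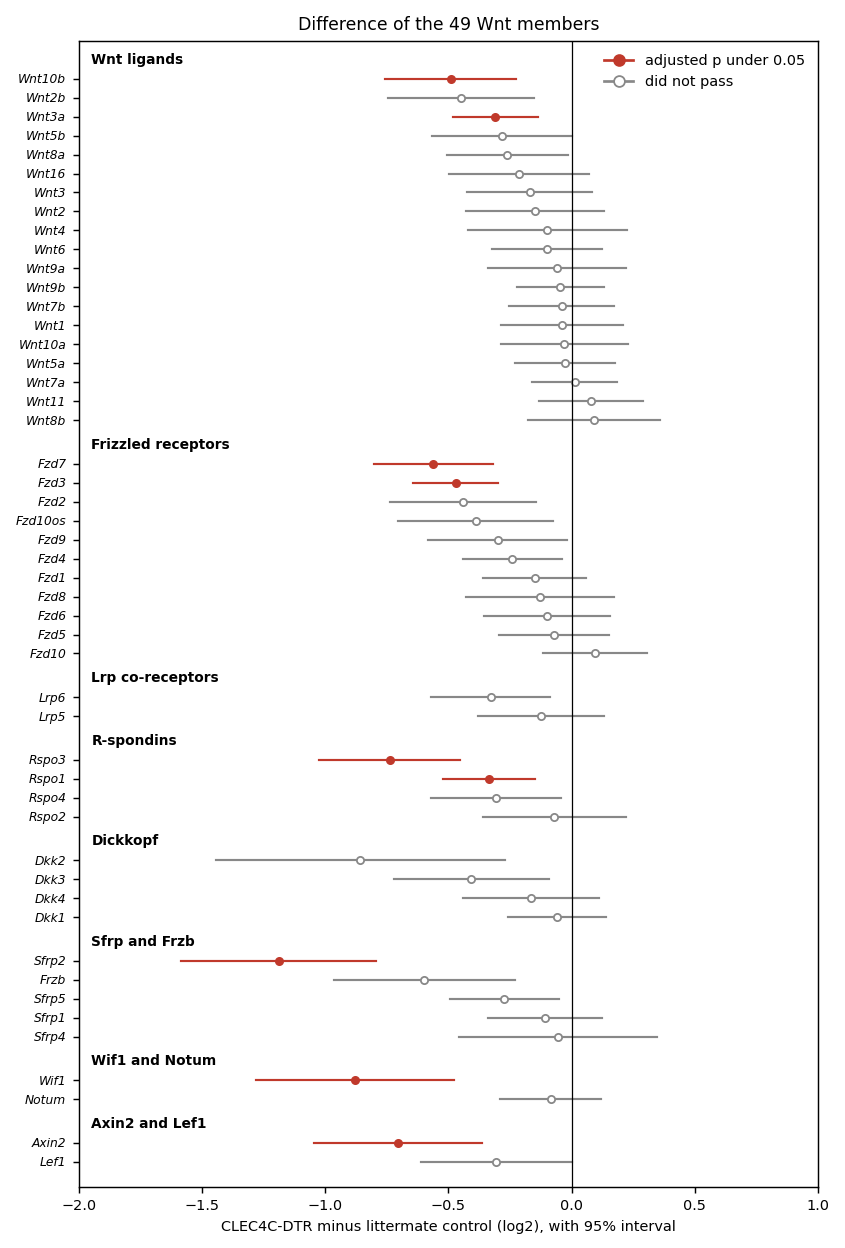
Log2 difference of each of the 49 members, CLEC4C-DTR minus littermate control, with its 95% interval from limma, grouped by role. Filled red points are the 9 members that passed an adjusted p of 0.05, all of them left of 0, and 4 members (Wnt7a, Wnt11, Wnt8b and Fzd10) lie right of 0.

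Among the 19 Wnt ligands 2 fell. Wnt10b, a ligand of the canonical branch known from hair follicle growth, had values of 6.10, 5.81 and 5.87 in CLEC4C-DTR ears, against 6.24, 6.50 and 6.53 in control ears. Its groups did not overlap, with CLEC4C-DTR replicate 1 and control replicate 1 nearest each other (difference -0.49, SE 0.11, adjusted p = 0.0391). The adjusted p of Wnt10b ranged over 0.0186 to 0.148 with 1 array left out. Wnt3a, also a canonical ligand, had values of 5.62, 5.56 and 5.66 in CLEC4C-DTR ears and 5.96, 5.91 and 5.90 in controls. Both groups of Wnt3a were tight, and the difference was small (-0.31, SE 0.08, adjusted p = 0.0427). It passed in none of the 6 fits with 1 array left out, where its adjusted p was 0.0592 to 0.134.

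Each of these ligands has another member as its neighbour in the order of coding genes on GRCm38.p6. Wnt1, beside Wnt10b, differed by -0.04 (adjusted p = 0.851) and Wnt9a, beside Wnt3a, by -0.06 (adjusted p = 0.801). The differences between neighbours were not tested. Wnt2b had the next smallest p among the ligands, with values of 6.17, 5.82 and 5.94 in CLEC4C-DTR ears and 6.48, 6.22 and 6.59 in control ears. Here CLEC4C-DTR replicate 1 lay just below control replicate 2 (difference -0.45, adjusted p = 0.0669).

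Other ligands with known roles in skin lay close to 0. Wnt5a, a ligand of beta-catenin-independent signalling, had values of 6.71, 6.52 and 6.53 in CLEC4C-DTR ears and 6.60, 6.69 and 6.56 in controls. The groups of Wnt5a overlapped, and the 95% interval of its difference was -0.23 to 0.18. Wnt10a, which is needed for teeth, hair and other skin appendages, had an interval of -0.29 to 0.23, and Wnt4, a ligand of epidermis, one of -0.42 to 0.22. A second probe set of Wnt4 gave the same difference as the one used, -0.10. Wnt7b, known from growing follicles, had an interval of -0.25 to 0.17. Wnt8b, Wnt11 and Wnt7a were the 3 ligands with a higher mean in CLEC4C-DTR ears, by 0.09, 0.08 and 0.01, and the remaining ligands differed by -0.28 (Wnt5b) to -0.05 (Wnt9b). The table holds no background measure, so whether ligands with low values, such as Wnt1 at 3.75 to 4.08, were expressed cannot be said.

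Of the 11 Frizzled genes, counting Fzd10os, 2 fell. Fzd3, a Frizzled of planar polarity that orients hair together with Fzd6, had values of 5.96, 5.98 and 5.93 in CLEC4C-DTR ears, against 6.46, 6.36 and 6.46 in control ears. The spread within each group was small, with an SD of 0.02 in CLEC4C-DTR ears and 0.06 in control ears (n = 3 each), beside a difference of -0.47 (SE 0.08, adjusted p = 0.0169). Fzd7, a receptor of canonical signalling in several stem cell types, had values of 7.34, 7.01 and 7.09 in CLEC4C-DTR ears and 7.77, 7.62 and 7.73 in controls. All 3 CLEC4C-DTR values of Fzd7 lay below the controls, replicate 1 being the nearest (difference -0.56, SE 0.10, adjusted p = 0.0219).

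Fzd2 had values of 6.83, 6.38 and 6.65 in CLEC4C-DTR ears and 7.05, 6.93 and 7.19 in control ears. Its groups did not overlap, but it did not pass (difference -0.44, adjusted p = 0.0697). The groups of Fzd4, which also binds the non-Wnt ligand Norrin, and of Fzd10os did not overlap either (differences -0.24 and -0.39, adjusted p = 0.123 and 0.111). Fzd6, the partner of Fzd3 in hair orientation, had an interval of -0.36 to 0.16. Fzd10 was the 1 Frizzled gene with a higher mean in CLEC4C-DTR ears, by 0.09 (adjusted p = 0.561).

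Neither co-receptor passed. Lrp6 had values of 8.49, 8.26 and 8.59 in CLEC4C-DTR ears and 8.69, 8.78 and 8.86 in controls, without overlap (difference -0.33, SE 0.10, adjusted p = 0.0881). Lrp5 had values of 7.80, 7.46 and 7.56 in CLEC4C-DTR ears and 7.72, 7.63 and 7.85 in controls. The groups of Lrp5 overlapped, and CLEC4C-DTR replicate 1 lay above 2 of the 3 controls (difference -0.12, adjusted p = 0.520).

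Of the 4 R-spondins, 2 fell. Rspo3, which binds Lgr receptors and thereby spares Frizzled from removal, had values of 5.97, 5.70 and 5.78 in CLEC4C-DTR ears, against 6.57, 6.34 and 6.75 in control ears. Its groups were apart by more than the range of the CLEC4C-DTR values (difference -0.74, SE 0.12, adjusted p = 0.0178). Rspo1 had values of 6.56, 6.52 and 6.62 in CLEC4C-DTR ears and 6.86, 6.85 and 7.00 in controls. The difference of Rspo1 was smaller, -0.33 (SE 0.08, adjusted p = 0.0434), and it passed in none of the 6 fits with 1 array left out (adjusted p 0.0640 to 0.161). Rspo4, known from nail formation in humans, differed by -0.31 without overlap (adjusted p = 0.132), and Rspo2 by -0.07 with overlap (adjusted p = 0.770).

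**Figure D2:**
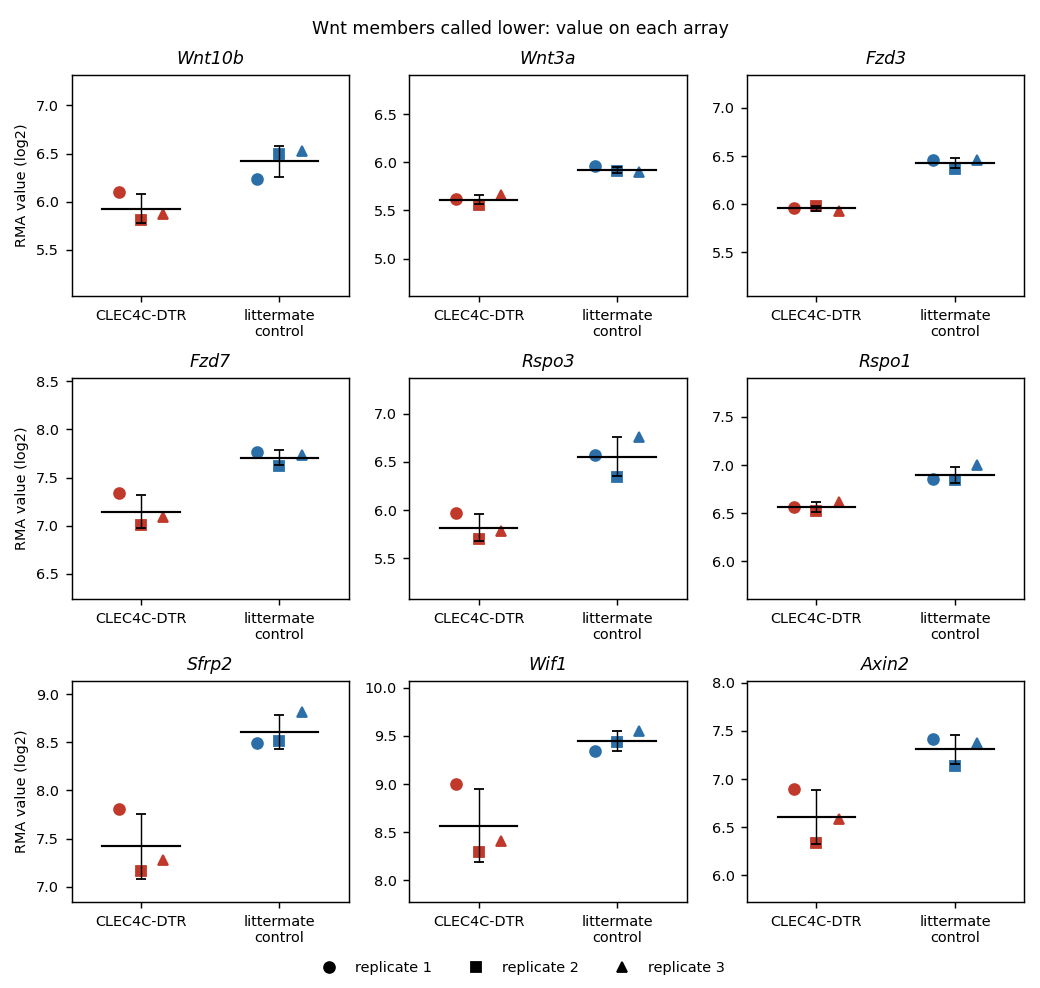
RMA value (log2) on each array for the 9 members that fell, CLEC4C-DTR on the left and littermate control on the right, with the mean (line) and SD (bar, n = 3). Each panel spans the same height on the log2 scale, the groups do not overlap in any panel, and in Sfrp2, Wif1, Axin2, Fzd7, Rspo3 and Wnt10b CLEC4C-DTR replicate 1 lies nearest the controls.

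The secreted inhibitors held the widest differences. Sfrp2, a Frizzled-related protein made by dermal fibroblasts that binds Wnt ligands, had values of 7.81, 7.17 and 7.28 in CLEC4C-DTR ears, against 8.49, 8.52 and 8.82 in control ears. The highest CLEC4C-DTR value, replicate 1, was well below the lowest control. Sfrp2 fell 2.28-fold (difference -1.19, SE 0.17, adjusted p = 0.0142). With 1 array left out its adjusted p ranged over 0.000848 to 0.0705. Wif1, which binds Wnt ligands in the extracellular space, had values of 9.0, 8.30 and 8.41 in CLEC4C-DTR ears and 9.35, 9.44 and 9.56 in controls. Wif1 fell 1.84-fold (difference -0.88, SE 0.17, adjusted p = 0.0260), with CLEC4C-DTR replicate 1 again closest to the controls. The adjusted p of Wif1 ranged over 0.000969 to 0.109 with 1 array left out.

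Dkk2 and Frzb had differences larger than most called members but did not pass. Dkk2, a Dickkopf protein that binds Lrp5 and Lrp6, had values of 6.65, 5.75 and 6.26 in CLEC4C-DTR ears and 6.88, 6.82 and 7.54 in control ears. Its spread was wide in both groups, with an SD of 0.45 in CLEC4C-DTR ears and 0.40 in control ears (difference -0.86, SE 0.25, adjusted p = 0.0731). Frzb, a Frizzled-related protein known from cartilage, had values of 7.67, 7.05 and 7.46 in CLEC4C-DTR ears and 7.81, 8.07 and 8.09 in controls. The groups of Frzb did not overlap (difference -0.60, SE 0.16, adjusted p = 0.0543). Frzb passed under 3 of 9 alternatives that kept all arrays, and Dkk2 under 1.

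The other inhibitors differed less. Dkk3, a divergent Dickkopf, differed by -0.41 without overlap (adjusted p = 0.100), and Dkk1, the best-known inhibitor of Lrp5 and Lrp6, by -0.06 with an interval of -0.26 to 0.14. Sfrp1 had an interval of -0.34 to 0.12 and Sfrp4 one of -0.46 to 0.35. Notum, the enzyme that strips the lipid from Wnt proteins, had an interval of -0.29 to 0.12.

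Axin2, a scaffold of the beta-catenin destruction complex that the pathway itself induces, had values of 6.89, 6.34 and 6.59 in CLEC4C-DTR ears, against 7.41, 7.14 and 7.38 in control ears. All CLEC4C-DTR values lay below all controls, and Axin2 fell 1.63-fold (difference -0.70, SE 0.15, adjusted p = 0.0293). Lef1, a transcription factor that carries beta-catenin to its targets, had values of 6.24, 5.73 and 6.01 in CLEC4C-DTR ears and 6.19, 6.40 and 6.29 in controls. CLEC4C-DTR replicate 1 lay above control replicate 1, and Lef1 did not pass (difference -0.31, SE 0.13, adjusted p = 0.184).

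The members' shift was uneven across arrays. In 19 members all CLEC4C-DTR values lay below all controls, where 19.0% of all genes did so (38.8% of the members), and in 0 members all lay above, against 14.0% of all genes. Averaged over the 49, CLEC4C-DTR replicates 1, 2 and 3 lay at -0.14, -0.38 and -0.26 from the mean of the controls, and the controls themselves at -0.03, -0.01 and 0.04. CLEC4C-DTR replicate 2 held the lowest of the 6 values in 31 members, and in 27.1% of all genes. Littermate control replicate 3 held the highest value in 23 members. The spread within groups was slightly wider for members than for all genes, with a median pooled SD of 0.149 against 0.124.

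**Figure D3:**
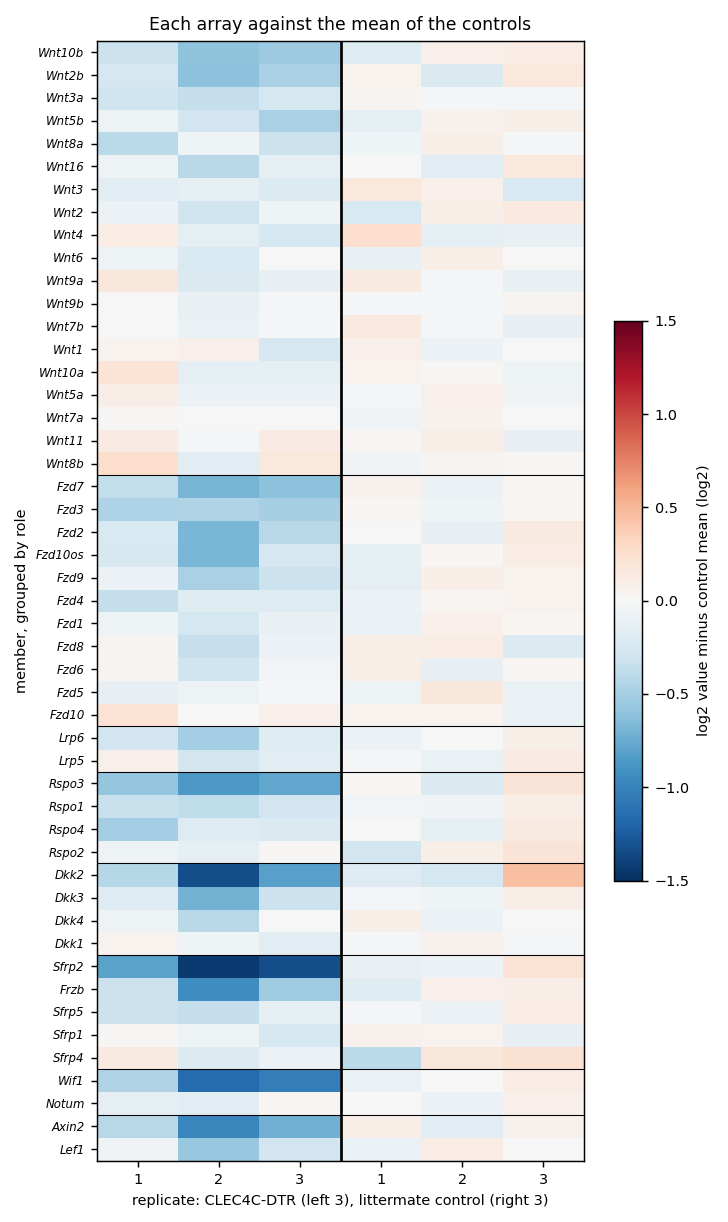
Log2 value of each member on each array minus the mean of the 3 controls, with CLEC4C-DTR replicates in the left 3 columns and littermate controls in the right 3, grouped by role. Blue is lower, and CLEC4C-DTR replicate 2 is the bluest column, with 47 of 49 members below the control mean.

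Other genes of the pathway were followed in a list of 71 genes that are no members, of which 69 were measured. Of these 8 fell and 1 rose, against 4.31% and 5.01% of all genes, and the median difference was -0.15. By place in the pathway the falls were 1 of 2 genes of ligand release, 2 of 5 of R-spondin sensing, 2 of 9 surface and secreted modulators, 2 of 21 genes of the cytoplasm and 1 of 8 targets. None of the 11 genes of the nucleus, the 9 of planar polarity or the 4 other receptors fell. Wls, the carrier that brings Wnt proteins to the cell surface, had values of 7.92, 7.59 and 8.13 in CLEC4C-DTR ears and 8.48, 8.37 and 8.65 in control ears, without overlap (difference -0.62, SE 0.14, adjusted p = 0.0381). Porcn, which adds the lipid to Wnt proteins, differed by -0.21 (adjusted p = 0.398).

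All 5 genes of R-spondin sensing had lower values without overlap, against 19.0% of all genes, and 2 of them passed, against 4.31%. Lgr6, an R-spondin receptor of follicle and epidermal stem cells, had values of 6.95, 6.40 and 6.42 in CLEC4C-DTR ears and 7.56, 7.41 and 7.46 in control ears (difference -0.89, SE 0.15, adjusted p = 0.0178). Its paralogs Lgr4 and Lgr5 differed by -0.76 and -0.44 and just missed the threshold (adjusted p = 0.0519 and 0.0539). Rnf43, a ligase that removes Frizzled and that R-spondins hold back, fell (difference -0.41, adjusted p = 0.0485), and its relative Znrf3 differed by -0.33 (adjusted p = 0.0789).

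Tnfrsf19, a receptor of follicle stem cells that is induced by Wnt signals, fell 2.26-fold (difference -1.18, SE 0.19, adjusted p = 0.0164). Lrp4, a surface protein that binds Sostdc1 and related inhibitors, fell 2.22-fold (adjusted p = 0.0198), while Sostdc1 itself differed by -0.29 (adjusted p = 0.129). Dact1 and Nkd2, which act on Dishevelled, fell (differences -0.56 and -0.43, adjusted p = 0.0297 and 0.0414), as did the glypican Gpc4 (difference -0.40, adjusted p = 0.0395). Gpc4 passed in none of the 6 fits with 1 array left out (adjusted p 0.0581 to 0.148). Csnk1d, a casein kinase that phosphorylates parts of the pathway, was the 1 gene that rose, by 0.36 (SE 0.08, adjusted p = 0.0393), and it did not pass after a further quantile normalisation or with any 1 array left out other than control replicate 2. Ctnnb1, the gene of beta-catenin, had values of 9.21, 9.22 and 9.34 in CLEC4C-DTR ears and 9.20, 9.18 and 9.21 in controls, with an interval of -0.12 to 0.24. Apcdd1, a Wnt inhibitor known from hair follicles, differed by -0.45 (adjusted p = 0.223), and the cell cycle target Ccnd1 by -0.30 (adjusted p = 0.103). None of the 9 planar polarity genes passed with limma, and 1 of them had an unadjusted p under 0.05. Falls in this list, too, changed with the array left out. There were 2 without CLEC4C-DTR replicate 2, 5 without control replicate 2 and 12 without CLEC4C-DTR replicate 1. In those fits 177, 489 and 1275 of all genes fell. There were 0 without CLEC4C-DTR replicate 3, control replicate 1 or control replicate 3, where 38, 59 and 18 of all genes fell.

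**Figure D4:**
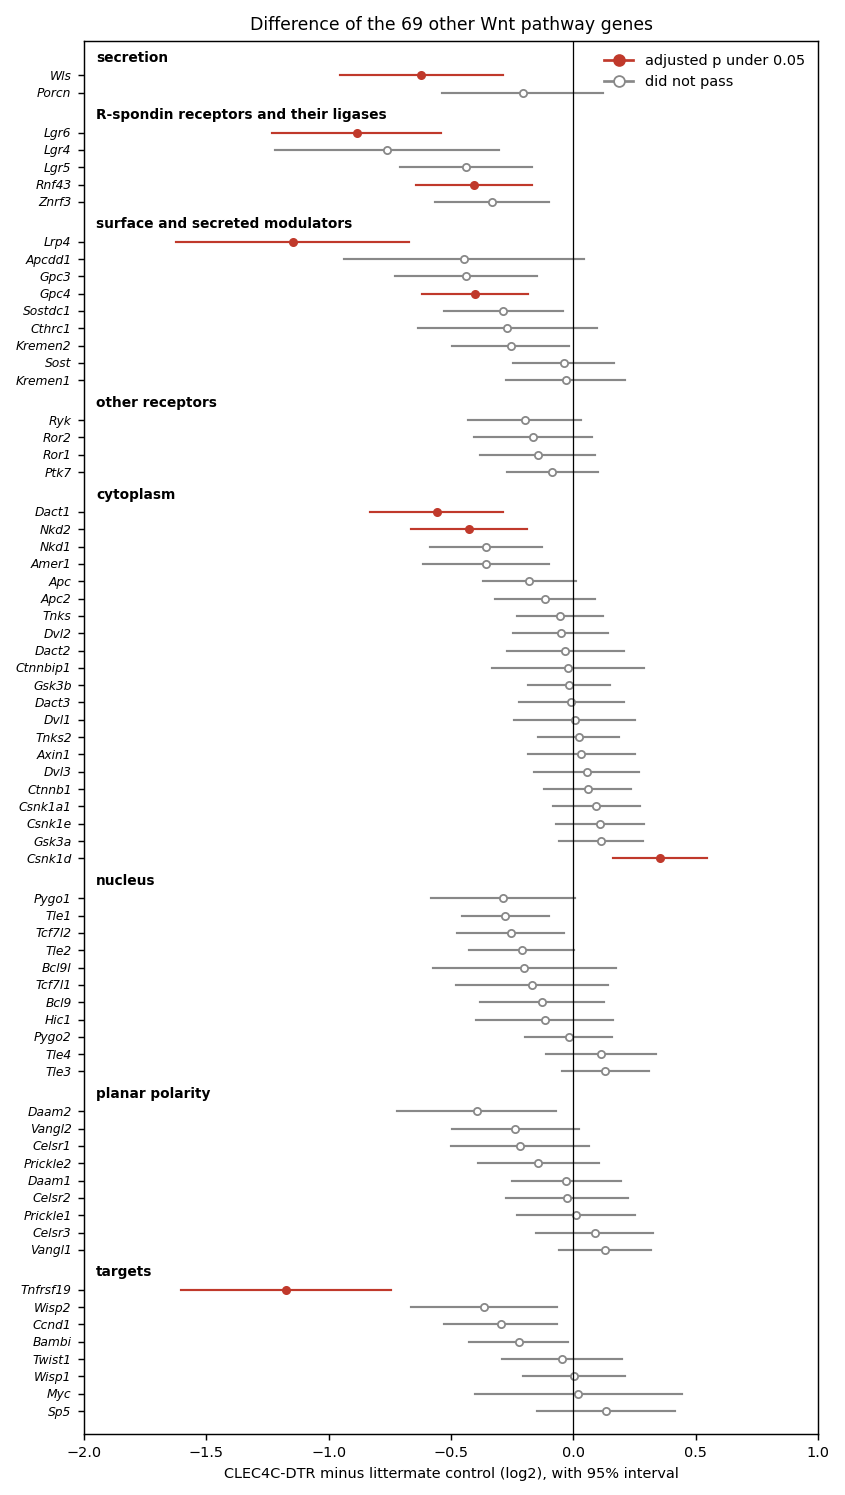
Log2 difference, CLEC4C-DTR minus littermate control, with its 95% interval, for the 69 measured pathway genes that are no members, grouped by place in the pathway. Filled red points passed an adjusted p of 0.05, 8 of them left of 0 and Csnk1d right of 0.

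Some markers of several resident cell types moved in the same direction as the members. RNA came from whole ear, so fewer cells of a type and less RNA per cell cannot be told apart. Beside the counts below, 4.31% of all genes fell and 5.01% rose. Of 12 fibroblast genes 3 fell, with differences of -1.57 for Aspn, -1.65 for Ogn and -0.96 for Dpt, and 1 rose, Pdgfra with 0.53. The mean level of that list was 8.59 to 8.92 in CLEC4C-DTR ears and 9.10 to 9.37 in controls. Of 10 genes of follicle stem cells and outer root sheath 3 fell, with differences of -1.59 for Krt15, -0.90 for Fgf18 and -0.66 for Sox9. Krt75 was higher without overlap but did not pass (difference 0.48, adjusted p = 0.140). That list averaged 7.57 to 7.88 in CLEC4C-DTR ears and 8.05 to 8.27 in control ears. Corin was the 1 of 8 dermal papilla genes that fell (difference -1.19). Crabp1 was higher without overlap but did not pass (difference 0.57, adjusted p = 0.0687). The dermal papilla list averaged 5.70 to 5.85 in CLEC4C-DTR ears and 5.94 to 6.02 in controls, a mean to which Corin contributes much. None of 12 hair shaft and inner root sheath genes passed, and their mean was 5.66 to 5.74 in CLEC4C-DTR ears and 5.79 to 5.93 in controls.

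Of 10 cartilage genes 3 fell, Cnmd (difference -0.93), Acan (difference -0.69) and Sox9 (difference -0.66). Sox9 is also in the follicle stem cell list and is counted in both. The cartilage list averaged 6.28 to 6.62 in CLEC4C-DTR ears and 6.76 to 6.94 in control ears. Skeletal muscle genes (3 of 8 fell), adipocyte genes (2 of 7), sebaceous gland genes (3 of 8), melanocyte genes (2 of 6) and Schwann cell genes (2 of 4) fell in part as well. These counts stand beside 4.31% of all genes. The adipocyte gene Lipe was higher without overlap but did not pass (difference 0.30, adjusted p = 0.098). No basal keratinocyte gene of 8 passed, although 7 had a lower mean and 4 of these did not overlap, against 58.2% and 19.0% of all genes. The basal keratinocyte list averaged 9.62 to 9.72 in CLEC4C-DTR ears and 9.83 to 9.92 in controls. Most genes of neutrophils, macrophages, T cells and proliferation went the other way, and over all genes 5.01% rose. Of 10 neutrophil genes 8 rose, with a mean of 8.43 to 9.75 in CLEC4C-DTR ears against 7.10 to 7.42 in controls. Of 9 monocyte and macrophage genes 7 rose, with a mean of 9.09 to 9.47 in CLEC4C-DTR ears and 8.07 to 8.47 in controls. Lyz2, of the same list, was lower without overlap but did not pass (difference -0.21, adjusted p = 0.139). All 7 T cell genes had a higher mean in CLEC4C-DTR ears and 2 rose, with a list mean of 7.20 to 7.64 in CLEC4C-DTR ears and 6.58 to 6.89 in controls. All 7 proliferation genes were higher without overlap and 3 rose, against 14.0% and 5.01% of all genes. The proliferation list averaged 7.82 to 8.45 in CLEC4C-DTR ears and 7.40 to 7.50 in controls. In endothelium 1 of 8 genes rose and in differentiated keratinocytes 1 of 6, and none fell in either list. CLEC4C-DTR replicate 2, lowest in the members, was also lowest in the fibroblast, follicle stem cell, hair shaft, dermal papilla, cartilage, muscle, adipocyte and sebaceous gland lists. The same array was lowest in the melanocyte, Schwann cell, plasmacytoid dendritic cell and both keratinocyte lists. It was highest in the neutrophil, T cell and endothelium lists. The part of these cell types in the members' differences was not tested.

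**Figure D5:**
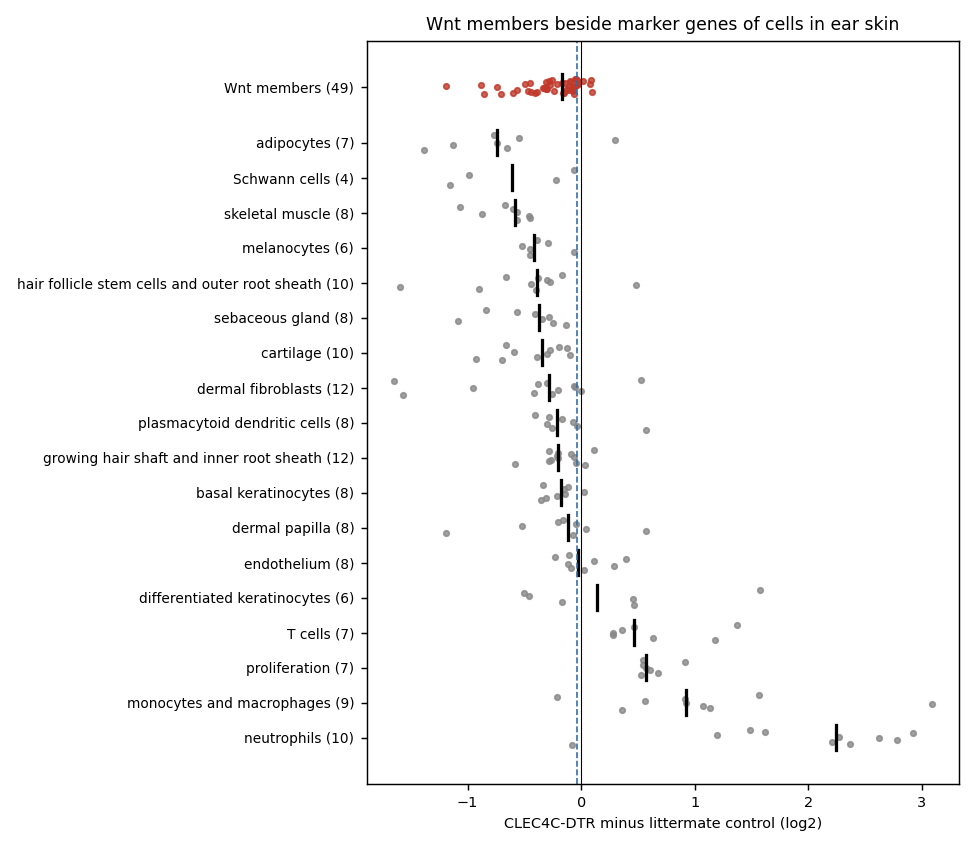
Log2 difference, CLEC4C-DTR minus littermate control, of the 49 members (red) and of each marker gene (grey) by list, with the list's median as a black bar, the number of measured genes in brackets and the median of all genes as a dashed line. The median of the members, -0.17, lies between those of the resident cell types, which run from -0.74 in adipocytes to 0.14 in differentiated keratinocytes, and neutrophil genes have the highest median, 2.24.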

How the data were processed

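Total RNA of whole ear skin of 6 mice was hybridised to Affymetrix Mouse Gene 1.0 ST arrays. The deposited values are on a log2 scale, read from the values, and the design text says that the authors used RMA (background correction, quantile normalisation and 1 summary value per probe set). Which software ran it was not stated, and mm8 is a build in the submitters' processing notes with no role given. RMA hides a change shared by most genes and compresses differences of dim genes. The table's 35556 probe sets were named through the platform annotation, and of the 21789 with 1 symbol the brightest per gene over 6 arrays was kept (19938 genes).

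Groups were compared by limma 3.58.1 in R 4.3.3 (lmFit, eBayes, two-sided, no covariate, Benjamini-Hochberg adjustment over all genes), which gives all adjusted p-values, SEs and 95% intervals. A gene was called at an adjusted p of 0.05. With 3 against 3 mice an exact permutation test cannot go below 0.1. On simulated data of 19938 genes for this comparison, 17 of 50 genes changed by 0.5 and 47 of 50 changed by 1 (log2) were recovered. The simulation drew independent normal values and gave 169 calls in all, against 860 falls and 998 rises in the data. Recovery in the real comparison may therefore differ. Values on every array are given for called members, for Axin2, Lef1, Lrp5 and Lrp6 and for the member with the smallest p in each role. Other genes are named by counts and ranges, and any other gene given with its own values, such as Fzd2, Frzb, Wnt2b, Wnt5a, Wnt1, Lgr4, Znrf3, Ccnd1, Krt14 and Col1a1, was picked after its values were seen. The members and lists were chosen with earlier results of these data known. Listed genes with no single-symbol probe set were not analysed here. Whether replicate numbers pair the mice was not stated. Same-numbered mice deviated together with a correlation of -0.06, 0.22 and 0.10, and mice of unlike number with -0.269 to 0.177. Deviations from a mean of 3 arrays are tied to each other, so these values cannot decide it. Figures were drawn with matplotlib 3.10.9.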

Additional observations from a re-analysis of the deposited data

How the results depend on the processing

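The 9 falls among the members, beside 860 over all genes, became 7 with arrays centred on their medians, beside 738. In that fit 5 other pathway genes fell. With a mean-variance trend 8 members fell, beside 837 of all genes, and with array weights 12, beside 1145. Among genes above the median level 6 of 22 members tested fell, beside 835 of all genes tested there. A further quantile normalisation gave 9 members, of which 8 were the same genes, beside 997 of all genes, and no rise of another pathway gene (0). Whether replicate numbers pair the mice is not known. With the replicate number as a block 9 members fell, 6 of them the same genes, beside 925 of all genes, and 0 other pathway genes rose. With variances not moderated across genes limma called 0 genes, members and pathway genes included, with 15 members and 12.3% of all genes lower at an unadjusted p of 0.05. With all 35556 probe sets tested, 57 rose and 38 fell in all, among them 0 members (19 lower at an unadjusted p of 0.05, as were 13.5% of the 19938 genes) and 0 other pathway genes. With 1 array left out, falls numbered 0 to 12 members, 0 to 3 of them at least 2-fold, and 0 to 12 other pathway genes, with 0 to 1 rising, and over all genes 18 to 1275 fell and 49 to 1342 rose. No member rose under any of the 15 alternatives run. The 9 called members kept their direction, which is fixed for a left-out array because their groups do not overlap. Under at least 1 alternative 10 of the 49 members, 20 of the 69 other pathway genes and 48 of all 263 member, pathway and marker genes turned direction, none of them a called gene. Among genes given with values, Sfrp4 (0.002) and Wnt9a (0.0018) became higher and Ctnnb1 (-0.0205) and Krt14 (-0.0297) lower after quantile normalisation, and Wnt10a (0.0036) and Wnt5a (0.0054) higher after centring. With 1 array left out Fzd5 ranged from -0.1219 to 0.0146, Rspo2 from -0.2066 to 0.0243, Sfrp4 from -0.2578 to 0.0597, Wnt1 from -0.0993 to 0.0648, Wnt10a from -0.1448 to 0.0321, Wnt4 from -0.206 to 0.0281, Wnt5a from -0.0888 to 0.0105, Wnt7a from -0.0161 to 0.0438, Wnt7b from -0.0995 to 0.0335, Wnt9a from -0.1724 to 0.0232 and Krt14 from -0.0315 to 0.0587. The cause of these changes was not tested. The number of arrays limits the precision of every value.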
